A study of Homo sapiens with 6 samples.

Results

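The mitochondrial ribosomal protein (MRP) genes were taken as every protein-coding gene whose GRCh38 symbol begins with MRPL or MRPS followed by a digit, after the Ensembl identifiers of the count files had been matched to gene symbols. There were 78 of them among 58243 identifiers, 49 with MRPL symbols and 29 with MRPS symbols, and all 78 had enough reads to be tested. Another 86 identifiers with such symbols belonged to other gene types, 79 of them pseudogenes, and were not members.

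The libraries were made from A375 cells, an established human melanoma line, by 4-thiouridine (4sU) sequencing, in which newly made RNA is labelled for a short time and then purified before sequencing. Cells stably transfected with an empty vector (EV, n = 3 libraries: B1, B2 and B3) were compared with cells stably transfected with a plasmid for human PRL3 carrying an HA tag (PRL3, n = 3 libraries: B9, B10 and B11). Both groups had been grown under hygromycin B at 100 µg/ml and labelled with 500 µM 4sU for 20 min, so selection and labelling were the same in the controls. PRL3, encoded by PTP4A3, is a phosphatase, and the question of the comparison was which nascent transcripts differ when it is overproduced. The counts used here are of reads on annotated exons. The paper names low-level carry-over of mRNA as a possible effect on the libraries and turned to intronic reads to remove it. The sources used here do not say whether each transfected line was 1 clone or a pool, nor whether the 3 libraries of a group came from separate cultures, so the p-values measure the spread between these libraries, which may be technical.

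Mitochondria have their own ribosome, which makes the small set of proteins encoded by mitochondrial DNA, nearly all of them subunits of the respiratory chain and the ATP synthase. Its RNA comes from the mitochondrial genome, but all of its proteins are encoded in the nucleus, made in the cytosol and imported. Part of these proteins have counterparts in bacterial ribosomes, and the rest were added during the evolution of mitochondria.

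Gene counts per library ranged from 36532207 to 57952035. PTP4A3 itself had 161, 212 and 279 normalized counts in the EV libraries and 22328, 28767 and 22065 in the PRL3 libraries, a log2 fold change of 6.80 (SE 0.25; edgeR adjusted p = 1.1e-08), so each library matched its label. The neural crest and melanocyte factor SOX10 had between 9882 and 23575 raw counts and MITF between 1004 and 2412, whereas the pigment enzyme TYR had at most 1 count and MLANA at most 2. Of 8 markers of other cell types, KRT14 had 328 to 1338 raw counts and the other 7 had at most 55 in any library. Of uniquely aligned reads, 33.3% ± 6.77 (SD, n = 3) lay outside annotated exons in EV and 66.3% ± 3.2 (SD, n = 3) in PRL3, with no overlap between the groups. This difference runs with the groups and cannot be told apart from them, and its part in the results that follow was not tested.

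Most MRP genes were lower in PRL3. With p-values from the quasi-likelihood test of edgeR, adjusted by Benjamini and Hochberg's method over all 23884 genes tested, 58 of the 78 members were lower at an adjusted p under 0.05 (74.4%), 3 were higher (3.85%) and 17 were not called. Across all protein-coding genes tested, 31.6% were called lower and 15.2% higher, and across all genes of any type 22.7% and 20.0%. The median log2 fold change of the members was -0.88, with quartiles at -1.23 and -0.48 and a range from -2.27 to 1.66, against a median of -0.15 over protein-coding genes and 0.11 over all genes. Every lower member had its 3 PRL3 values below its 3 EV values, and so did 5 members that were not called, 63 in all, against 36.7% of protein-coding genes. There were 34 members lower with a log2 fold change below -1, that is, to less than 50% of the EV level, against 16.4% of protein-coding genes. The values are relative to the other genes of a library, and in bulk libraries fewer cells with a transcript and less of it in each cell cannot be told apart.

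**Figure D1:**
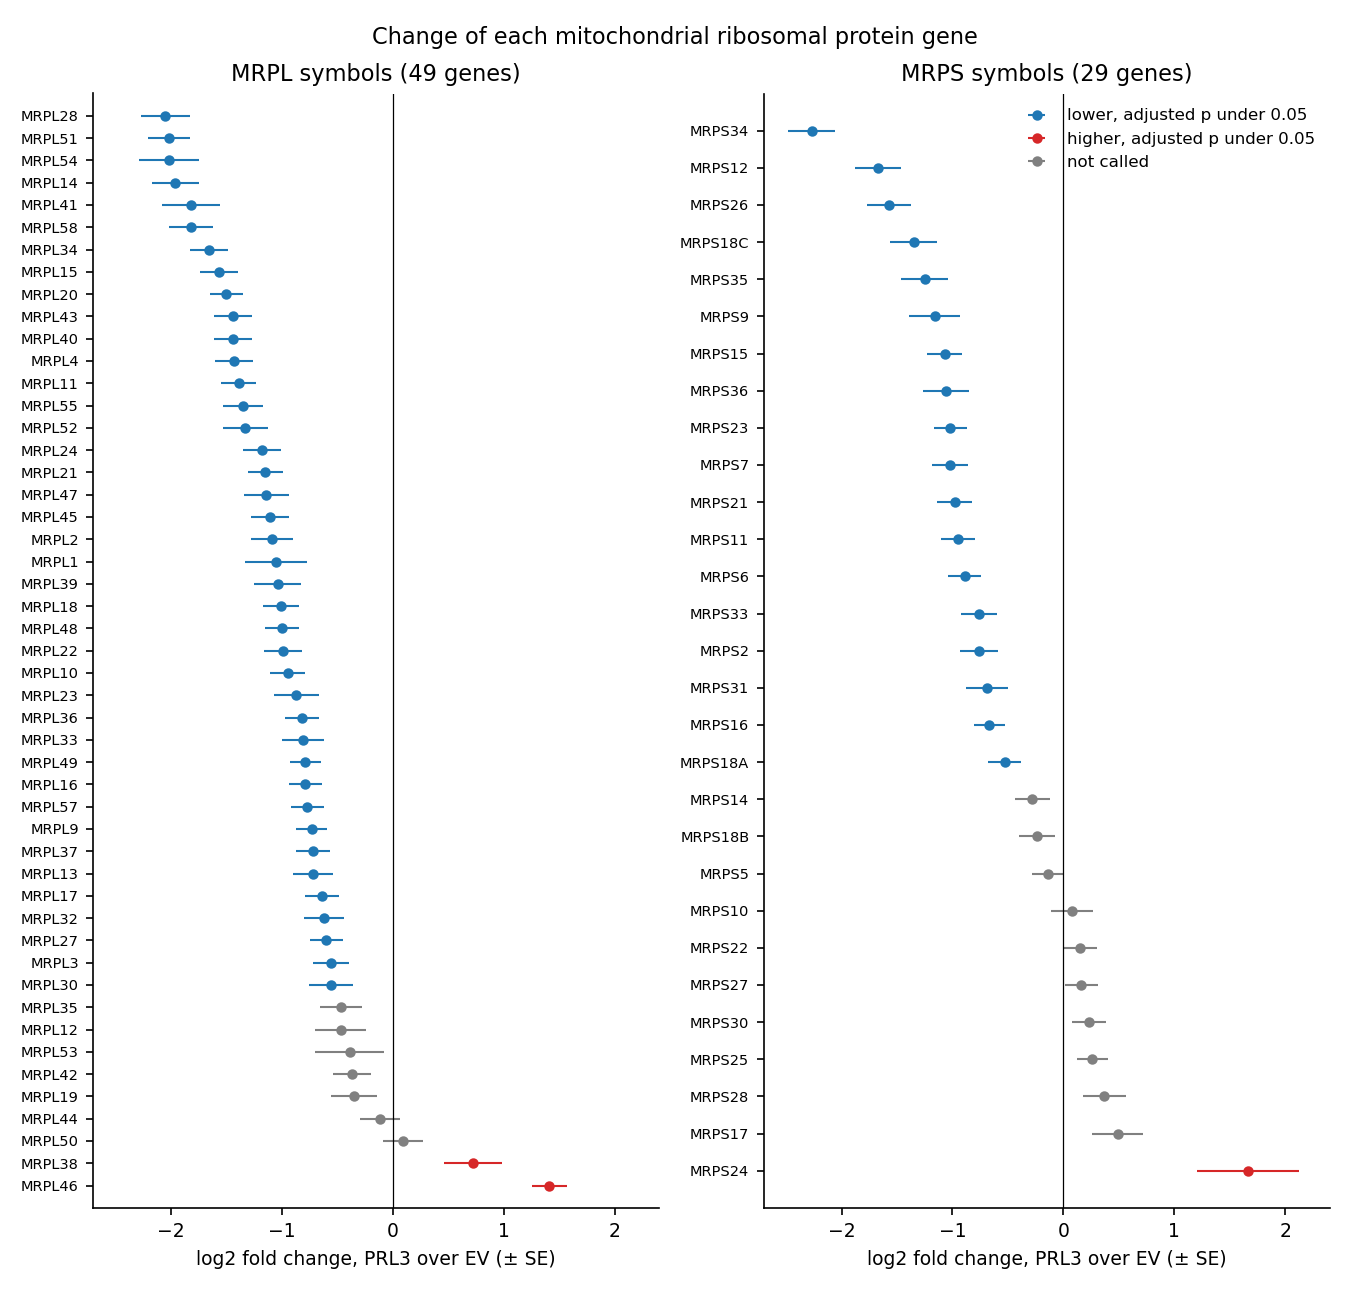
Log2 fold change of PRL3 over EV with its standard error (x axis) for each of the 78 members, MRPL symbols on the left and MRPS symbols on the right, ordered by change. Blue points were lower and red points higher at an edgeR adjusted p under 0.05, and grey points were not called: 58 points are blue, 3 are red and 17 are grey.

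As a share of all reads counted on genes, the members together took 0.595, 0.612 and 0.565% in EV libraries B1, B2 and B3 and 0.428, 0.448 and 0.432% in PRL3 libraries B9, B10 and B11. The 2 groups did not overlap, at 0.591% ± 0.0238 (SD, n = 3) in EV and 0.436% ± 0.0106 (SD, n = 3) in PRL3. An exact two-sided permutation test over 3 against 3 libraries cannot go below p = 0.1. The median member varied little between libraries of 1 group, with a coefficient of variation of 16.6% in EV and 11.7% in PRL3. Among the EV libraries, B3 had the lowest normalized count for 45 of the 78 members, and among the PRL3 libraries B9 had the lowest for 51 and B10 the highest for 47.

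The number of members called and the size of the decrease depended on how the libraries were scaled. With library size alone in place of TMM factors, 37 members were lower and 11 higher and the median was -0.39, and with all uniquely aligned reads as the library size 67 were lower and 2 higher and the median was -1.36. The median over all genes moved with it, from 0.11 to 0.60 and to -0.36. A scaling moves all genes by nearly the same amount, so the distance of the member median under the protein-coding median, 0.73 log2 units, stays as it is by construction. There were 37 of the 58 lower members that were called lower in all 15 other fits.

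Short sequence elements around the start of transcription of the members were read from RefSeq windows of the GRCh38.p14 assembly. The windows run from 250 bases before to 50 bases after the start, and 69 of the 78 members had such a window. The shares count matches anywhere in the window, also after the start. The letters CCGGAAG, the core recognised by ETS factors such as the subunit GABPA, were found on either strand in 30 of the 69 windows (43.5%), against 14.8% of the windows of 15289 protein-coding genes and 10.3% of all 35116 windows. AAGATGGC, the core bound by YY1, was found in 21 (30.4%), against 4.16% and 2.89%. Within the 250 bases before the start these letters were found only in MRPL32, MRPL36, MRPL47, MRPL52 and MRPS12. In most of the 21 windows they thus lay only past those 250 bases. The palindromic site of NRF1 (nuclear respiratory factor, a regulator of nuclear genes for mitochondria), GCGCA followed at once by its reverse complement, was found in 1 (1.45%), against 1.77% and 1.24%. The ETS and YY1 letters can overlap by their AAG, but did so in 0 of the 69 windows. In all, 44 of the 69 windows held at least 1 of the 3 elements (63.8%, against 19.3% of protein-coding windows).

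The ETS letters were in 26 of the 51 windows of lower members (51.0%) and in 4 of the 18 windows of the other members (22.2%). For the YY1 letters these numbers were 12 of 51 (23.5%) and 9 of 18. The median log2 fold change was -1.01 with and -0.77 without the ETS letters, and -0.62 with and -0.96 without the YY1 letters. These shares are descriptions without a test, and a match of letters is not a binding site.

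The 250 bases before the start are shown, 5′ to 3′ on the strand of the gene and with matched letters in capitals, for MRPS34, the member with the strongest decrease and with 3 ETS matches (chr16:1773135-1773384, minus strand). They are also shown for MRPL51 (chr12:6493263-6493512, minus strand) and MRPL20 (chr1:1407294-1407543, minus strand), which had the highest EV levels of the MRPL genes and 2 ETS matches each. MRPL52 (chr14:22829637-22829886, plus strand) shows 2 YY1 matches. MRPL46 (chr15:88467389-88467638, minus strand) holds none of the 3 elements in these 250 bases. It is shown because it starts beside another member that moved the opposite way.
MRPS34: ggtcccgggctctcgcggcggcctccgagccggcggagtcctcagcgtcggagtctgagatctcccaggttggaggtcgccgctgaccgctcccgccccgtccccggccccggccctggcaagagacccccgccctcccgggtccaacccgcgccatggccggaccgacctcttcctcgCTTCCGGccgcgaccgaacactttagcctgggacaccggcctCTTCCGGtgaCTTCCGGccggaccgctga
MRPL51: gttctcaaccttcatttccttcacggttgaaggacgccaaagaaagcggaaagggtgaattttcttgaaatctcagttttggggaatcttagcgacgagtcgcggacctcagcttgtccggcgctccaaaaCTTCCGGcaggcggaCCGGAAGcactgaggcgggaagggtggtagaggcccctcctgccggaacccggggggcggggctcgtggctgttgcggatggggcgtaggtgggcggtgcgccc
MRPL20: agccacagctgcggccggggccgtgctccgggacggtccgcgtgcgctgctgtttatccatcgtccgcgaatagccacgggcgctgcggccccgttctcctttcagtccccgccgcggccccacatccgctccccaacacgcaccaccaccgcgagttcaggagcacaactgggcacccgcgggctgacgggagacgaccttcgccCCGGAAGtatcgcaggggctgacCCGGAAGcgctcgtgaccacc
MRPL52: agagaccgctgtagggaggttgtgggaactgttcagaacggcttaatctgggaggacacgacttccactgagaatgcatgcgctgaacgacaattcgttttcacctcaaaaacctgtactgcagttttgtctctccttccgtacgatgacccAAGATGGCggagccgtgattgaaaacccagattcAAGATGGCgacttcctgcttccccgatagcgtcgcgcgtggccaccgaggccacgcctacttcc
MRPL46: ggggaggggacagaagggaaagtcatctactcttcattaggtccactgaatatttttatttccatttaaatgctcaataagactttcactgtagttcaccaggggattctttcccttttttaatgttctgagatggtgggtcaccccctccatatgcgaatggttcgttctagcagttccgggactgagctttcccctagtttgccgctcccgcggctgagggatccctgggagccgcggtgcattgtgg

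In MRPS34 the ETS letters lay 71 to 65, 29 to 23 and 19 to 13 bases before the start, all on the opposite strand, and in MRPL20 they lay 44 to 38 and 21 to 15 bases before it on the strand of the gene. In MRPL51 the 2 matches lay 119 to 113 bases upstream on the opposite strand and 104 to 98 bases upstream on the strand of the gene. The YY1 letters of MRPL52 lay 98 to 91 and 64 to 57 bases upstream. The only NRF1 match was in MRPL17, 81 to 72 bases upstream.

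Both subunits contributed to the decrease. Of the 49 MRPL genes, 40 were lower and 2 higher, with a median log2 fold change of -0.99, and of the 29 MRPS genes 18 were lower and 1 higher, with a median of -0.76. Sorted by the subunit in which the protein sits, 41 of 51 large-subunit genes and 16 of 26 small-subunit genes were lower (medians -0.95 and -0.76). Within the member reads, the share that fell on MRPS genes was 37.7, 39.0 and 39.5% in the EV libraries and 44.6, 43.1 and 43.1% in the PRL3 libraries. All 3 PRL3 shares were above all 3 EV shares (38.7% ± 0.929 against 43.6% ± 0.866, SD, n = 3), with an exact permutation test limited to p = 0.1.

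Most genes were lower both for proteins classed as conserved from bacterial ribosomes and for those classed as specific to mitochondria. In the large subunit, 27 of 30 conserved members were lower and 0 higher, while 14 of 21 mitochondria-specific members were lower and 2 higher (medians -0.97 and -0.79). In the small subunit the counts were 10 of 16 lower and 1 higher, and 6 of 10 lower and 0 higher (medians -0.83 and -0.73). The difference between these classes was not tested.

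The strongest decrease was that of MRPS34 (mS34, a mitochondria-specific protein of the small subunit; chr16:1771890-1773150, minus strand), which had 15825, 19529 and 13693 normalized counts in EV and 2771, 4434 and 2965 in PRL3. Its highest PRL3 library, B10, was still far under its lowest EV library, and the log2 fold change was -2.27 (SE 0.21; edgeR adjusted p = 9.82e-06), leaving 20.7% of the EV mean. MRPS34 also had the highest EV level per kilobase of exon among the MRPS genes. MRPS12 (uS12m, the conserved protein at the decoding centre) had 6055, 8205 and 6586 in EV and 1585, 2868 and 2115 in PRL3, a log2 fold change of -1.67 (SE 0.21; edgeR adjusted p = 4.58e-05).

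The other 6 members at the head of the decrease were large-subunit genes. MRPL28 (bL28m, a conserved protein) had 6831, 9577 and 7401 normalized counts in EV and 1411, 2537 and 1814 in PRL3 (log2 fold change -2.05, SE 0.22; edgeR adjusted p = 1.7e-05). MRPL51 (mL51, mitochondria-specific) had 17183, 15344 and 11840 in EV and 2842, 4304 and 3754 in PRL3 (-2.02, SE 0.19). In both, every EV library lay far above every PRL3 library, and B9 was the lowest PRL3 library. MRPL54 (mL54) had 3645, 5848 and 3080 in EV and 663, 1373 and 1063 in PRL3 (-2.02, SE 0.27). MRPL14 (uL14m, which lies at the interface between the subunits) had 4655, 4801 and 3538 in EV and 797, 1395 and 1135 in PRL3 (-1.96, SE 0.21). These 2 genes likewise had no overlap between groups, MRPL54 with the wider spread in EV. MRPL58 (mL62, also known as ICT1, a peptidyl-tRNA hydrolase that frees stalled ribosomes and was built into the large subunit) had 3745, 3159 and 2172 in EV and 770, 958 and 833 in PRL3 (-1.82, SE 0.20). MRPL41 (mL41) had 5431, 8653 and 5217 in EV and 1329, 2613 and 1528 in PRL3 (-1.82, SE 0.26). The edgeR adjusted p of these 6 genes lay between 1.2e-05 and 0.000118, and all 6 were lower in each of the 15 other fits.

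The most abundant members fell as well. MRPL20 (bL20m, a conserved protein of the large subunit) had the highest EV level per kilobase of exon of all members, where it was 371 counts per kilobase scaled to the depth of the library (CPM per kilobase), and fell to 131. Its normalized counts were 13535, 12214 and 10991 in EV and 4210, 4765 and 4007 in PRL3 (log2 fold change -1.50, SE 0.15; edgeR adjusted p = 1.48e-05). MRPS21 (bS21m) followed MRPS34 among the MRPS genes and had 9924, 12058 and 8971 in EV and 5003, 5633 and 5036 in PRL3 (-0.98, SE 0.16). Neither gene had any overlap between the groups, and the decrease of MRPL20 was the larger. Across the 78 members the EV level per kilobase and the log2 fold change had a Spearman correlation of -0.62, against -0.44 over 14443 protein-coding genes. Across the 68 members that share under 10% of their exon bases with another gene of the same strand it was -0.51. The level is divided by transcript length, which had its own correlation with the log2 fold change, 0.37 over the 78 members. The 2 measures share the EV libraries, and the correlations are across genes and are given as descriptions.

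**Figure D2:**
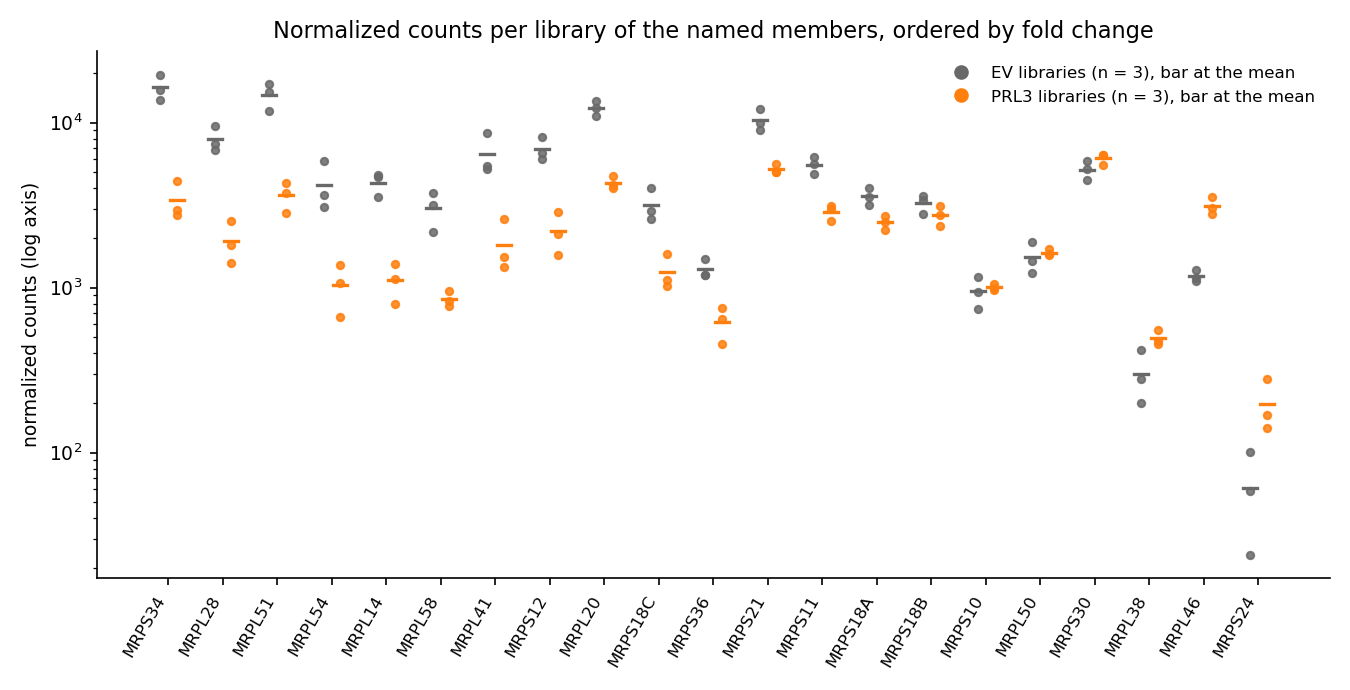
Normalized counts (log axis) of the named members in each EV library (grey) and each PRL3 library (orange), n = 3 a group with a bar at the mean, ordered from the strongest decrease to the strongest increase. Orange lies wholly under grey from MRPS34 to MRPS18A, the groups overlap from MRPS18B to MRPS30, and orange lies above grey for MRPL38, MRPL46 and MRPS24.

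Some functional regions of the ribosome, grouped after their values were known, are given as descriptions. At the exit of the peptide tunnel, where new proteins leave the ribosome toward the inner membrane, 6 of 7 genes were lower (MRPL17, MRPL22, MRPL23, MRPL24, MRPL45 and MRPL47) and MRPL44, at -0.12 (SE 0.18), was not called. In the stalk and its base, which receive the translation factors, MRPL10 and MRPL11 were lower and MRPL12 was not called, at -0.47 (SE 0.23). Among genes of the central protuberance, MRPL18, MRPL40, MRPL48 and MRPL58 were lower and MRPL38 and MRPL46 higher. Along the path of the mRNA, MRPS12 was lower, MRPS5 was not called, at -0.14 (SE 0.14), and MRPS24 was higher.

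Several symbols do not tell where the protein sits. MRPS18A, MRPS18B and MRPS18C are related genes: the product of MRPS18A (mL66) is found in the large subunit, and those of MRPS18B (mS40) and MRPS18C (bS18m) in the small one. MRPS18C had 3992, 2913 and 2615 normalized counts in EV and 1028, 1112 and 1608 in PRL3 (log2 fold change -1.35, SE 0.21; edgeR adjusted p = 0.000223). MRPS18A had 3188, 4034 and 3544 in EV and 2510, 2735 and 2232 in PRL3 (-0.53, SE 0.15; edgeR adjusted p = 0.0145). MRPS18B had 3399, 3608 and 2797 in EV and 3139, 2772 and 2362 in PRL3 (-0.24, SE 0.16; edgeR adjusted p = 0.248). These 3 genes thus ranged from a clear separation of the groups in MRPS18C to overlapping groups in MRPS18B, and the call on MRPS18A was lost without EV library B2 (adjusted p = 0.0509), PRL3 library B9 (0.054) or B11 (0.0962). The call on MRPS18A was also lost with upper-quartile scaling and with protein-coding genes only (both -0.35) and with library size alone (-0.03).

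MRPS30 (mL65, likewise a large-subunit protein) had 5273, 4481 and 5820 normalized counts in EV and 5577, 6372 and 6366 in PRL3, overlapping groups with a log2 fold change of 0.23 (SE 0.15; edgeR adjusted p = 0.233). It was called higher with upper-quartile scaling and with protein-coding genes only (both 0.41) and with library size alone (0.72). MRPS36, whose product KGD4 is now placed in the oxoglutarate dehydrogenase complex and not in the ribosome, had 1487, 1194 and 1185 in EV and 457, 754 and 646 in PRL3 (-1.06, SE 0.21; edgeR adjusted p = 0.00113). The members nearest to no change were MRPL50 (mL50), with 1895, 1220 and 1459 in EV and 1567, 1595 and 1710 in PRL3 (0.09, SE 0.18), and MRPS10 (uS10m), with 1167, 739 and 945 in EV and 996, 962 and 1051 in PRL3 (0.08, SE 0.19). In both of these the PRL3 libraries lay within the range of the EV libraries, although both were called higher with library size alone (0.59 for MRPL50 and 0.57 for MRPS10).

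The 3 members that were higher in PRL3 had in common that most of their exon bases are shared with another gene of the same strand. Counting tools of the kind used for these files leave out a read that fits 2 genes, so reads on shared bases of such a gene are not counted. The percentages given here are of canonical transcripts in GENCODE release 44, whereas the reads were counted on Ensembl release 91. The bases shared in the counting may therefore differ from these percentages. MRPL46 (mL46; chr15:88459477-88467390, minus strand) had 1094, 1151 and 1276 normalized counts in EV and 2808, 3052 and 3524 in PRL3, a log2 fold change of 1.41 (SE 0.16; edgeR adjusted p = 2.14e-05), with 73.4% of the bases of its canonical transcript shared. MRPS24 (uS3m, at the mRNA entry) had 58.5, 24.1 and 101 in EV and 140, 170 and 278 in PRL3 (1.66, SE 0.46; edgeR adjusted p = 0.0103), with 90.9% shared. MRPL38 (mL38) had 200, 278 and 419 in EV and 473, 551 and 455 in PRL3 (0.72, SE 0.26; edgeR adjusted p = 0.0427), with 94.3% shared. The groups did not overlap in any of the 3, but the call on MRPS24 was lost without PRL3 library B11 (adjusted p = 0.0747), and that on MRPL38 without any 1 library other than EV B3 (0.0804 to 0.149) and with all uniquely aligned reads as the library size (0.445).

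Of the 10 members that shared at least 10% of these bases, 2 were lower, 3 were higher and 5 were not called, with a median log2 fold change of 0.01. Of the 6 that shared over 50%, 0 were lower and 3 were higher, and the other 3 were MRPL53 (99.2%), MRPL12 (69.5%) and MRPS28 (56.2%), at -0.39 (SE 0.31), -0.47 (SE 0.23) and 0.37 (SE 0.19). Of the 68 members under 10%, 56 were lower (82.4%), 0 were higher and 12 were not called, with a median of -1.0. The overlapping gene was listed at 0 reads in all 6 libraries for MRPS24 (URGCP-MRPS24), MRPL46, MRPL12 and MRPS28. MRPL53 shared its bases with CCDC142, which was itself higher (0.59, SE 0.20; edgeR adjusted p = 0.0264). This split was chosen after the values had been seen. Its 0 higher members under 10% became 6 with library size alone and 2 with upper-quartile scaling, and its 0 lower members over 50% became 2 with all uniquely aligned reads as the library size.

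The same split over the protein-coding genes that are no members gave the same order. Of 13413 such genes under 10% shared, 32.3% were lower and 14.5% higher, with a median of -0.17, and of 392 genes over 50% shared, 9.69% were lower and 33.4% higher, with a median of 0.54. The 560 genes from 10 to 50% lay between, at 25.4% lower and 21.1% higher. Genes over 50% shared had the lower percentage of decreases under each of the 4 other scalings too, between 4.08 and 15.8%, against 17.2 to 51.3% for those under 10%. The percentage of shared exon bases moved with the direction of change in members and in other genes. Its part in the increase of MRPL38, MRPL46 and MRPS24 was not tested.

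**Figure D3:**
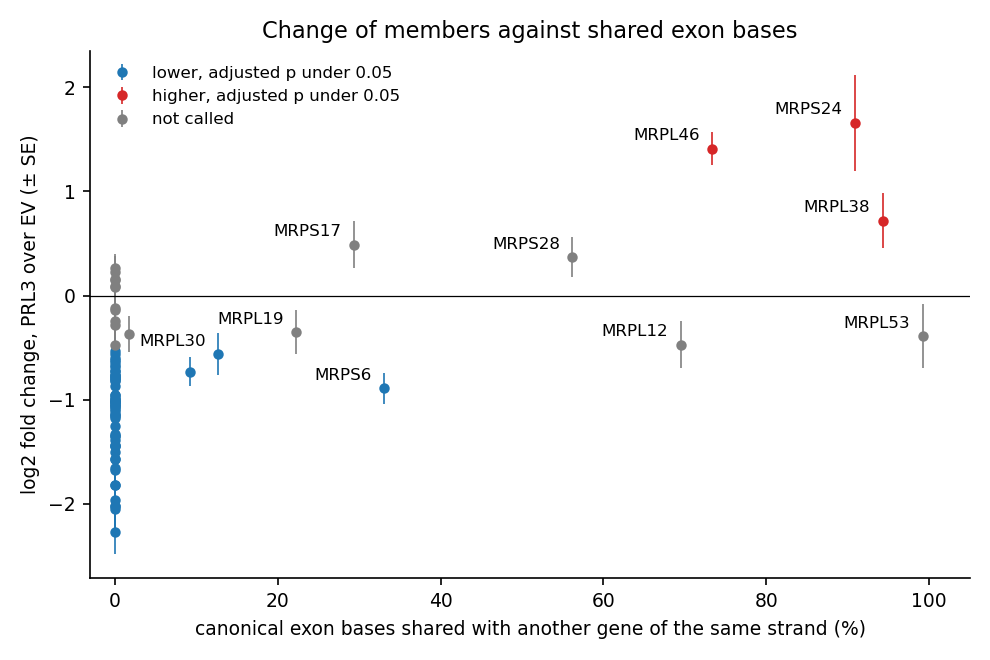
Log2 fold change of PRL3 over EV with its standard error (y axis) against the percentage of canonical exon bases that a member shares with another gene of the same strand (x axis), with names for the 10 members at 10% or more. The 3 red points, higher at an edgeR adjusted p under 0.05, all lie to the right of 50%, and none of the 6 points there is blue (lower).

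The annotated gene bounds of MRPL46 and MRPS11 (uS11m, on the platform of the small subunit) begin 63 bases apart on opposite strands of chromosome 15. Their canonical transcripts start further apart, at 88467388 and 88467708. MRPS11 (chr15:88467453-88480776, plus strand) had 5599, 6153 and 4919 normalized counts in EV and 3111, 3007 and 2538 in PRL3 (log2 fold change -0.95, SE 0.15; edgeR adjusted p = 0.000316), so that it was lower in every PRL3 library while its neighbour was higher in every PRL3 library. MRPS11 shared 0 of its exon bases with another gene of its strand, against 73.4% for MRPL46.

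By these gene bounds, 27 members in all started within 1000 bases of a protein-coding gene on the opposite strand. Such a bound can lie far from the canonical start, at 66466738 against 66438848 for MRPL11, paired with PELI3. For MRPS22, paired with PRR23A, these positions were 139005806 and 139344020. Of the 26 protein-coding genes so found that are no members, 25 were tested. Of these, 8 were lower (32.0%, against 31.6% of protein-coding genes), 4 higher (16.0%, against 15.2%) and 13 not called, with a median log2 fold change of -0.10, against -1.01 for their members. Under the 4 other scalings the neighbours called lower numbered 4 to 13 and those called higher 1 to 9. The member lay under its neighbour in 20 of the 25 pairs, and in 8 of the 23 pairs with a lower member the neighbour was lower too. Those pairs included MRPL49 with FAU (-2.15, SE 0.20), which encodes a cytosolic ribosomal protein, and MRPL47 with NDUFB5 (-1.56, SE 0.22) and MRPL36 with NDUFS6 (-1.11, SE 0.18), which encode subunits of respiratory complex I. In 2 pairs the neighbour was higher, PSMA2 beside MRPL32 (1.62, SE 0.20) and HELQ beside MRPS18C (0.49, SE 0.17). MRPL43 and MRPS12 started beside TWNK, the mitochondrial DNA helicase, and SARS2, the mitochondrial seryl-tRNA synthetase, neither of which was called (0.28, SE 0.14, and 0.34, SE 0.21).

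**Figure D4:**
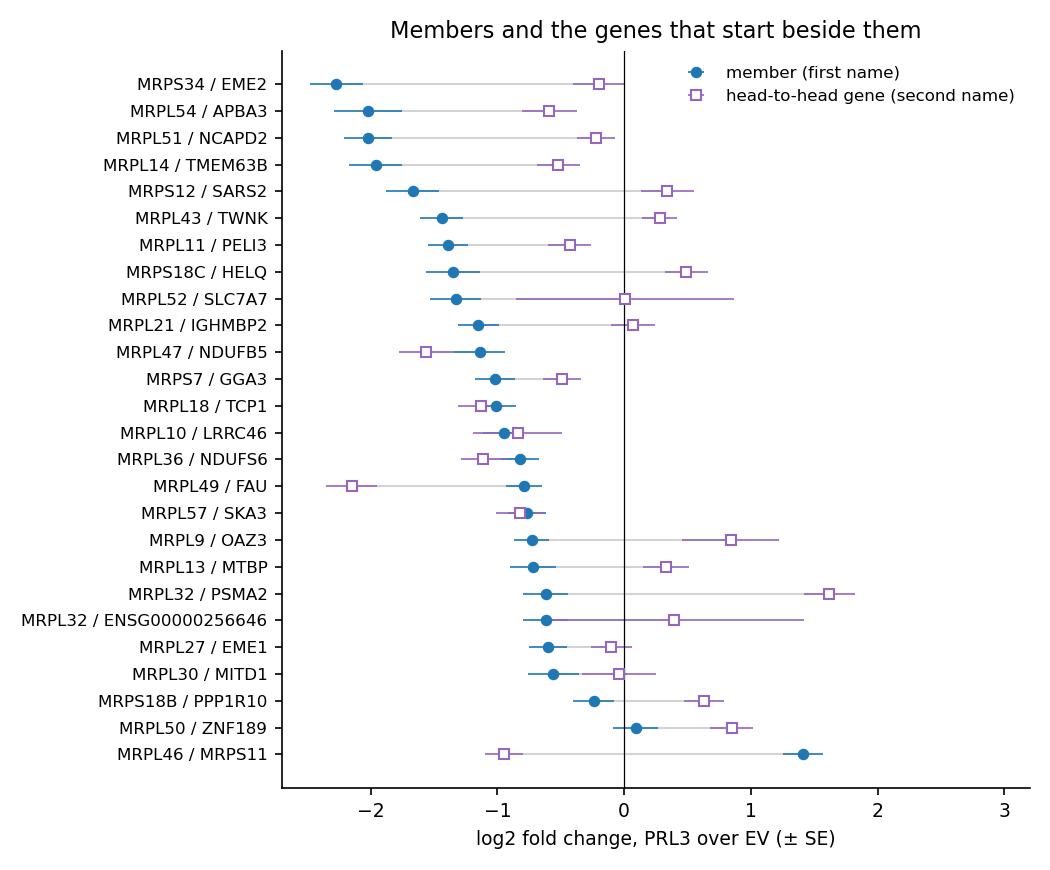
Log2 fold change of PRL3 over EV with its standard error (x axis) for members (filled circles, first name) and tested neighbours (open squares, second name). Neighbours are protein-coding genes on the opposite strand whose annotated bounds begin within 1000 bases of those of the member. The filled circle lies to the left of the open square in 20 of the 25 pairs with a gene that is no member, and MRPL46 and MRPS11, both members, lie on opposite sides of 0.

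Short members had lower fold changes than long ones. Among the 26 members with the shortest canonical transcripts (496 to 999 bases), 22 were lower and the median log2 fold change was -1.16, among the 26 in the middle 22 were lower with a median of -1.01, and among the 26 longest (1605 to 15557 bases) 14 were lower with a median of -0.56. The Spearman correlation of transcript length with log2 fold change was 0.37 over the 78 members and 0.32 over protein-coding genes, so the members followed a relation that held over other genes too. The length of the whole gene had a correlation of 0.23 over the 78 members and 0.30 over protein-coding genes. Over the 68 members that share under 10% of exon bases, the correlations were 0.52 for transcript length and 0.35 for gene length. Over the 78 members the number of exons (0.07) and the percentage of the gene taken by introns (0.05) showed next to no relation.

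Of the 5 proteins of the mitochondrial ribosome whose genes carry other names, 4 were lower. AURKAIP1 (mS38) had 14919, 22742 and 14037 normalized counts in EV and 2621, 5122 and 3290 in PRL3 (log2 fold change -2.23, SE 0.25), and CHCHD1 (mS37, -1.86, SE 0.24), GADD45GIP1 (mL64, also known as CRIF1, -1.85, SE 0.22) and the GTP-binding DAP3 (mS29, -0.80, SE 0.15) were lower too. PTCD3 (mS39, a pentatricopeptide repeat protein) had 5032, 3394 and 4591 in EV and 6664, 6437 and 6997 in PRL3 and was higher (0.63, SE 0.16; edgeR adjusted p = 0.00779). The groups did not overlap in any of the 5, and PTCD3 was not called with all uniquely aligned reads as the library size (0.15, SE 0.18), nor DAP3 with library size alone (-0.30, SE 0.14).

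The genes that serve the mitochondrial ribosome were less uniform. Of 15 translation and release factors, 7 were lower and 1 higher (median -0.32): the elongation factor TUFM fell to 0.299 of its EV level (-1.74, SE 0.18), its exchange factor TSFM (-0.85, SE 0.16) and the deformylase PDF (-1.48, SE 0.29) were lower, and the ribosome rescue factor MTRFR was higher (0.77, SE 0.19). Of 25 assembly factors, 9 were lower and 4 higher (median -0.28), among them the lower rRNA chaperone ERAL1 (-1.65, SE 0.17), C1QBP (-1.61, SE 0.18) and the helicase DHX30 (-1.17, SE 0.16). The 4 higher assembly factors were RBFA (0.85, SE 0.16), NSUN4 (0.61, SE 0.17), its partner MTERF4 (0.61, SE 0.15) and the GTPase MTG1 (0.61, SE 0.20).

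Of 19 mitochondrial tRNA synthetases, 7 were lower, IARS2 the furthest (-1.67, SE 0.20), and MARS2 (0.56, SE 0.17) and LARS2 (0.39, SE 0.14) were higher (median -0.25). Of 19 genes for expression of mitochondrial DNA, 7 were lower and 2 higher (median -0.26). The mitochondrial RNA polymerase POLRMT (-1.78, SE 0.21), the RNA-binding SLIRP (-1.59, SE 0.17) and the RNase P subunit HSD17B10 (-2.16, SE 0.20) were lower, and the RNase P subunit PRORP was higher (1.00, SE 0.24). Against the 31.6% of protein-coding genes called lower, the share was 46.7% in translation factors, 36.0% in assembly factors and 36.8% in each of the other 2 lists. The calls in these 4 lists depended on the scaling in both directions. With all uniquely aligned reads as the library size, where 50.1% of protein-coding genes were lower and 4.03% higher, 0 genes of the 4 lists were higher, and 10 of 15 translation factors, 18 of 25 assembly factors, 12 of 19 tRNA synthetases and 11 of 19 genes for expression of mitochondrial DNA were lower. With library size alone, 2 translation factors were lower and 5 higher, and these numbers were 6 and 7 for assembly factors, 4 and 7 for tRNA synthetases and 3 and 6 for genes for expression of mitochondrial DNA.

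Other large families of ribosomal and respiratory chain genes were mostly lower too. Of 86 cytosolic ribosomal protein genes 77 were lower and 5 higher (median -1.54), and of 82 tested nuclear genes of oxidative phosphorylation 70 were lower and 4 higher (median -1.40). Of the 13 protein genes of mitochondrial DNA, whose mRNAs the mitochondrial ribosome reads, 12 were lower and MT-ND6 was not called, with a median of -1.36. The member median of -0.88 was thus nearer to 0 than the medians of all 3 families, a difference that was not tested.

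**Figure D5:**
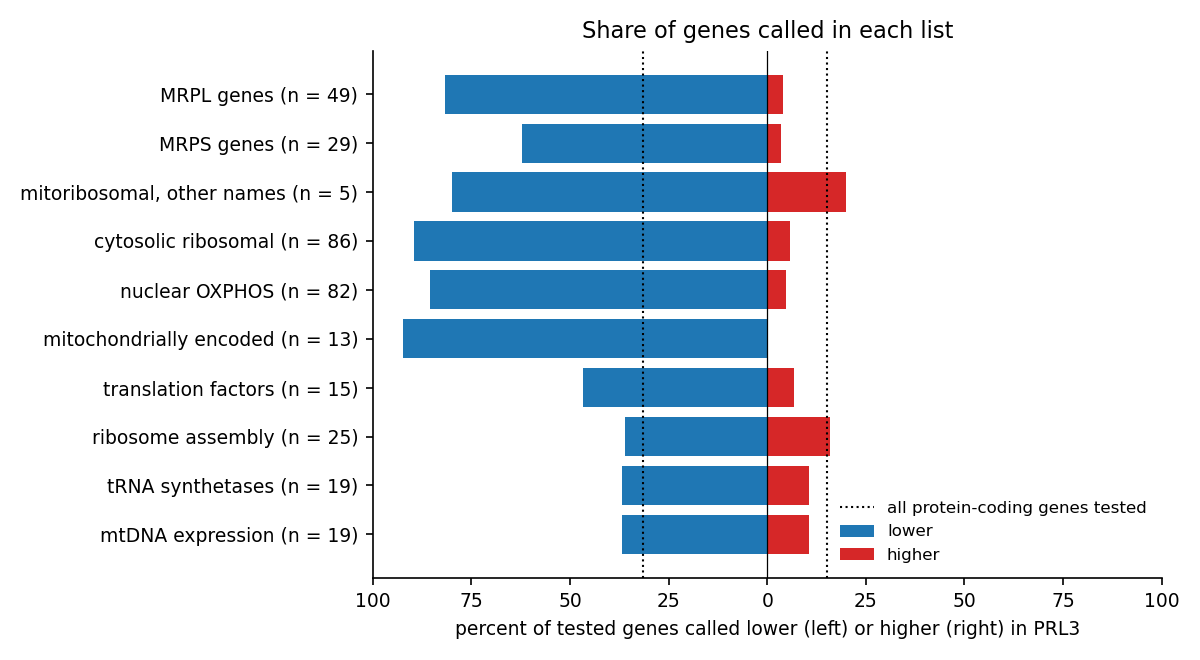
Percentage of tested genes called lower (blue, to the left) and higher (red, to the right) in PRL3 at an edgeR adjusted p under 0.05, for the members and related gene lists, with dotted lines at the percentages over all protein-coding genes (31.6% lower and 15.2% higher). The bars of the MRPL genes, the cytosolic ribosomal proteins, the nuclear genes of oxidative phosphorylation and the mitochondrially encoded genes reach past 80% on the left, and the MRPS bar stops at 62.1%.

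Transcription regulators known to act on nuclear genes for mitochondria showed no shared decrease. Of 10 such regulators, 1 was lower, the nuclear receptor ESRRA (-1.44, SE 0.20), and 4 were higher: the coactivators PPARGC1B (1.16, SE 0.17) and PPRC1 (0.47, SE 0.16) and the GABP subunits GABPB2 (0.80, SE 0.18) and GABPB1 (0.39, SE 0.14). The shares were 10.0% lower and 40.0% higher, against 31.6% and 15.2% of protein-coding genes tested. NRF1 had 1273, 1471 and 1591 normalized counts in EV and 2007, 1642 and 1350 in PRL3 (0.20, SE 0.18), and YY1 had 4473, 4172 and 4113 in EV and 5157, 4813 and 4533 in PRL3 (0.18, SE 0.14). GABPA, the ETS subunit of GABP, had 1375, 948 and 978 in EV and 810, 986 and 1163 in PRL3 (-0.16, SE 0.20), and TFAM, which packs and activates mitochondrial DNA, had 2890, 1605 and 2097 in EV and 1874, 2133 and 2395 in PRL3 (-0.04, SE 0.20). None of these 4 was called by edgeR (adjusted p = 0.311 to 0.886), and the groups overlapped for NRF1, GABPA and TFAM but not for YY1. The signs for GABPA, TFAM, NRF1 and YY1 changed with the scaling, and so did some calls. YY1 was called higher with upper-quartile scaling (0.37), with protein-coding genes only (0.37) and with library size alone (0.68), NRF1 was called higher with library size alone (0.70), and GABPA was called lower with all uniquely aligned reads as the library size (-0.64). Of the 10 regulators, 7 were higher and 1 lower with library size alone, and 1 higher and 2 lower with all uniquely aligned reads. Of protein-coding genes, 36.9% were higher and 16.9% lower with library size alone, and 4.03% and 50.1% with all uniquely aligned reads.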

How the data were processed

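RNA labelled with 4-thiouridine from 3 EV and 3 PRL3 libraries of A375 cells was sequenced. Per the labels and methods, the authors aligned reads with STAR 2.5.1b to GRCh38 after quality checks with FastQC 0.11.3 and counted reads per gene with HTSeq 0.6.1 on Ensembl annotation release 91 in the reverse-strand setting. The deposited values are raw counts per gene, 1 file a library, and groups follow the sample titles. Reads without a feature (28.7 to 69.1% of uniquely aligned reads) and ambiguous reads were left out of tests. Gene reads ranged from 36532207 to 57952035, and intervals of single counts cover counting error only.

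Identifiers were matched to GENCODE release 44 (57532 of 58243). Low counts were filtered with edgeR's filterByExpr. PRL3 was compared with EV by edgeR 4.0.16 (R 4.3.3), with TMM factors and the quasi-likelihood test, adjusted over 23884 genes and without covariates. Normalized counts are counts divided by the scaled library size, and levels per kilobase use canonical transcripts. The script was tested on simulated data. Alternatives were 4 other scalings, DESeq2 1.42.0, limma-voom (limma 3.58.1), 2 other filters, protein-coding genes alone, an adjusted p of 0.01 and leaving out each library. Members that share under 10% of exon bases were counted separately as an alternative chosen after seeing the data.

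The members, gene lists and tests were chosen with earlier results of these data known. Genes were named by these rules: the 8 lowest and 8 highest called members without overlap between groups (3 were higher), the 2 highest EV levels of each family, members whose name and place differ, head-to-head member pairs, the mitoribosomal genes of other names, NRF1, GABPA, YY1, TFAM and PTP4A3, and the member nearest to 0 in each family. Other names were chosen after their values were seen.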

Additional observations from a re-analysis of the deposited data

Results flagged for a closer look

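Reads that fell outside annotated exons were counted on no gene and entered only through the alternative library size of all uniquely aligned reads. They made up 66.3% of uniquely aligned reads on average in the PRL3 libraries (69.1, 62.8 and 66.9% in B9, B10 and B11), above the 30.2, 28.7 and 41.1% in EV libraries B1, B2 and B3. As a share of all uniquely aligned reads, the members took 0.367% ± 0.0522 (SD, n = 3) in EV and 0.138% ± 0.0155 (SD, n = 3) in PRL3.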

How the results depend on the processing

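The members called lower numbered 58 and those called higher 3, with medians of -0.88 over all, -0.99 over MRPL and -0.76 over MRPS genes. RLE scaling, DESeq2, limma-voom and both other filters on low counts kept every one of these counts within 1.5 times. Upper-quartile scaling gave 7 higher members, 5 of them MRPS, and medians of -0.71, -0.81 and -0.58, and a fit of protein-coding genes only gave 7 and 5 with -0.70, -0.81 and -0.58. Library size alone gave 37 lower (25 MRPL) and 11 higher (8 MRPS) with medians of -0.39, -0.50 and -0.27. All uniquely aligned reads as the library size gave medians of -1.36, -1.47 and -1.23 and 1 higher MRPL gene, and the median over all genes moved to -0.36. At an adjusted p of 0.01, 1 member was higher (1 MRPL, 0 MRPS), and 0 were higher among members sharing under 10% of exon bases. Leaving out 1 library at a time gave 52 to 58 lower and 1 to 3 higher members (median -0.95 to -0.82), 36 to 41 and 1 to 2 MRPL genes (-1.03 to -0.85), and 16 to 18 and 0 to 1 MRPS genes (-0.79 to -0.64). The single higher member without PRL3 library B11 was MRPL46. Of the 67 members below 0, 58 stayed below 0 in every fit.

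Signs changed for genes that were not called. GABPA was at 0.03 with upper-quartile scaling, with protein-coding genes only and without EV library B1, and at 0.34 with library size alone. TFAM was at 0.15, 0.14, 0.21 and 0.45 in the same settings, at 0.00 with at least 10 counts in every library and at 0.05 without PRL3 library B9. MRPS18B was at 0.26 with library size alone. With all uniquely aligned reads, MRPS30 was at -0.24, NRF1 at -0.27, YY1 at -0.30, MRPL50 at -0.39 and MRPS10 at -0.40, and without EV library B2 MRPL50 was at -0.03 and MRPS10 at -0.06. Over all fits without 1 library, GABPA ranged from -0.28 to 0.03, TFAM from -0.21 to 0.21, MRPL50 from -0.03 to 0.28 and MRPS10 from -0.06 to 0.25. The cause of these shifts was not tested.

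No paired analysis was possible because the labels number EV and PRL3 libraries differently, with no number in common. The 3 libraries a group limit the precision to a median standard error of 0.17 on the log2 scale for the members.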

Other observations

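Increases among other families whose genes are mostly lower in PRL3 also fell on genes with shared exons. Of the cytosolic ribosomal protein genes that share under 10% of exon bases, 75 of 80 were lower and 2 higher (RPL3L at 1.23 and RPS15A at 0.53), and of the 6 that share more, RPS10 (84.0% shared, 1.42), RPL36A (43.8%, 1.40) and RPL26 (65.3%, 0.84) were higher. Among nuclear genes of oxidative phosphorylation, 65 of 69 under 10% were lower and 1 was higher (ATP5MGL, 1.75), and NDUFA7 (77.9% shared, 1.23), NDUFV2 (90.0%, 1.10) and NDUFA9 (11.7%, 0.94) were higher. All these calls are by edgeR at an adjusted p under 0.05, the log2 fold changes are of PRL3 over EV, and the part of shared exons in them was not tested.

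Of 79 pseudogenes of MRP genes, 14 had enough reads to be tested. Of these, 6 were higher in PRL3 (42.9%), 1 was lower (7.14%) and 7 were not called by edgeR. Over all genes tested, 20.0% were higher and 22.7% lower. The median log2 fold change of the 14 pseudogenes was 1.14 (0.69 to 1.59 under the 4 other scalings). Reads of near-identical copies can be split between a gene and its pseudogenes, so these values are uncertain.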
